A study of Mus musculus with 6 samples.

Results

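Untreated mouse embryonic stem cells, which made up 2 of the 6 libraries of the series, are described here by the level of each gene. The cells were derived from the blastocyst of C57BL/6J mice, were of genotype Mll1 fl/fl and carried Cre-ER TM, a Cre recombinase that tamoxifen activates. No tamoxifen is listed for them, and neither vitamin D3 nor MM-401; the other 4 libraries, given vitamin D3 with or without MM-401, are not analysed here. Mll1, the gene Kmt2a, encodes a histone H3 lysine 4 methyltransferase, and its floxed alleles are intact unless Cre is active. The culture medium held leukemia inhibitory factor (LIF) with 15% fetal calf serum or 20% KSR, a serum replacement, and the cells grew on mouse embryonic fibroblast feeders. The labels do not say which medium a library came from, how the 2 untreated libraries relate, or whether the feeders were removed before RNA was taken.

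The deposited tables hold 1 pooled column for both untreated libraries, so no value below has a spread between samples and none has a test. Its name was matched to the untreated group through the letters ESC, which no other group's titles share, and the rest of the name is not explained by the labels. Levels are FPKM, fragments scaled to transcript length and to the depth of the pool, and each is given where it matters with the authors' confidence interval, whose level is not given. The pool held 62125295 estimated counts over 62481 loci with a valid status. For the 9045 protein-coding genes with at least 500 estimated counts, the half-width of the authors' interval had a median of 46.9% of the FPKM, so neighbouring genes in any ranking overlap widely.

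Embryonic stem cells correspond to the early epiblast. They renew themselves while the transcription factors OCT4 (Pou5f1), SOX2 and NANOG hold a shared network, which LIF through STAT3 and BMP through SMAD and ID proteins stabilise in serum culture, while FGF4 and ERK drive the exit from it. The cells divide fast with a short G1 phase and keep lineage genes silent with Polycomb proteins.

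The cells carried the defining transcripts of this cell type. All 5 marker genes were expressed: Pou5f1 stood at 1114 FPKM (interval 591 to 1638) and ranked 38 among protein-coding genes. Sox2 stood at 156.5 FPKM (103 to 210.4), Nanog at 117 (73.0 to 171) and Esrrb, an orphan nuclear receptor of the naive network, at 109 (68.7 to 149). Those 3 intervals overlap, so their order is not resolved. The interval of Pou5f1 lies above all of them and that of Zfp42 (REX1), at 26.4 FPKM (17.5 to 35.4), lies below all of them. By rank, Sox2 was 699, Nanog 1032, Esrrb 1115 and Zfp42 4154.

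The bases before the start site of a few of these genes show how different the promoters behind such levels are. The lines below give, from RefSeq (GRCm38.p6), up to 250 bases upstream of an annotated start, 5′ to 3′ on the gene's strand. Pou5f1 and Nanog have 2 such starts, of which 1 is shown. Each line ends at the base before the start, except that of Pou5f1. Its 236 bases leave out the last 14 before the start, which lie inside the GENCODE gene. Positions given below count from the RefSeq start, which for Sox2 lies 410 bases from the GENCODE start. Capitals mark every match on either strand to the GC box GGGCGG, the CCAAT box, the TATA box TATAAA, the E-box CACGTG or 3 further motifs named with the genome-wide shares at the end. Pou5f1, Sox2 and Nanog are shown as the core factors, Tdgf1 as the highest member of the Nodal pathway, Klf4 for its dense matches, and Afp, a fetal liver gene listed at 0, for contrast.
Pou5f1 (chr17:35505782-35506017, plus strand): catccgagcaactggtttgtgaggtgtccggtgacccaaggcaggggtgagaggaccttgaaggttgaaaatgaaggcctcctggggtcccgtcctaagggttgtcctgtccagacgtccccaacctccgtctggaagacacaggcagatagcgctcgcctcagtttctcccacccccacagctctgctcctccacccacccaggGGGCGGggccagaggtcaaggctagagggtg
Sox2 (chr3:34649745-34649994, plus strand): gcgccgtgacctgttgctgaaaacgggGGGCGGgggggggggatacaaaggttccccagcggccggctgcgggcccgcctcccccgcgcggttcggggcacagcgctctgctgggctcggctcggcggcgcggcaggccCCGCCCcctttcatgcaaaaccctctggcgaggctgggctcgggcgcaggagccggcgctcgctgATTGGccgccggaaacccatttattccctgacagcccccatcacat
Nanog (chr6:122707239-122707488, plus strand): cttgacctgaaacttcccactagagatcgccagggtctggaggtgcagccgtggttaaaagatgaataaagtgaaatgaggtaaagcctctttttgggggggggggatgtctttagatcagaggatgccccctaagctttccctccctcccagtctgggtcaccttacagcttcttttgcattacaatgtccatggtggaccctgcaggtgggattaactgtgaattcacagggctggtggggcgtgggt
Tdgf1 (chr9:110946159-110946408, minus strand): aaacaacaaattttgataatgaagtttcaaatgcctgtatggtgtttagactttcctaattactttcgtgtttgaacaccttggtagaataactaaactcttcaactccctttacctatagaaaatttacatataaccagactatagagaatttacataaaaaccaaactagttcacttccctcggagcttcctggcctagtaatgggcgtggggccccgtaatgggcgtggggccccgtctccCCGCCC
Klf4 (chr4:55532476-55532725, minus strand): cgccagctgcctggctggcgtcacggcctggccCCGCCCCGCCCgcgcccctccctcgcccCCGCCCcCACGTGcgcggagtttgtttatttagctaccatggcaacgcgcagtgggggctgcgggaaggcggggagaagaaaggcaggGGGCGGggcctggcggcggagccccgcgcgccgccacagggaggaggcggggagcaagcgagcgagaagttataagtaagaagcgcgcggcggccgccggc
Afp (chr5:90490464-90490713, plus strand): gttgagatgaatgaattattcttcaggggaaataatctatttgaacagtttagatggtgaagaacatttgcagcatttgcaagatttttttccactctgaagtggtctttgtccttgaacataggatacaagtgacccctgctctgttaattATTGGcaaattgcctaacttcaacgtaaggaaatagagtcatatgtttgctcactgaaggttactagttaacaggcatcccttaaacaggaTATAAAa
The windows of Klf4 and Sox2 are rich in CpG, with an observed over expected ratio of 0.941 and 0.833. Those of Nanog, at 0.182, and Afp, at 0.125, are poor in it, and Pou5f1 at 0.354 and Tdgf1 at 0.648 lie between. Klf4 holds 4 GC boxes and an E-box, Sox2 holds GC boxes at -223 and -111 and a CCAAT box at -46 from the start, and Pou5f1 holds a GC box at -45. No motif of the set lies in the Nanog window. A match describes the letters and is no evidence of binding.

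Just over 1 in 2 protein-coding genes was present. Of 21924 protein-coding symbols in the GENCODE annotation, 20099 had a value of their own, and 10867 of these (54.1%) reached 1 FPKM, the threshold used here for a gene counted as present. Of the 20099, 680 have their value from loci that also carry other names in the authors' assembly, none of a further protein-coding gene. The median over all 20099 was 1.84 FPKM and over the 10867 it was 17.0 FPKM. At least 10 FPKM was reached by 6850 genes, at least 100 FPKM by 1236 and at least 1000 FPKM by 47, while 5172 were listed at 0. Just inside the threshold lay Cyp2t4, Pxt1 and Eva1a, each at 1.00 FPKM. Just outside lay 4930548H24Rik at 0.998, Rnf43, a ubiquitin ligase that dampens Wnt signals, at 0.995 and Prr36 at 0.995 FPKM. The authors' intervals of all 6 run across the threshold.

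**Figure D1:**
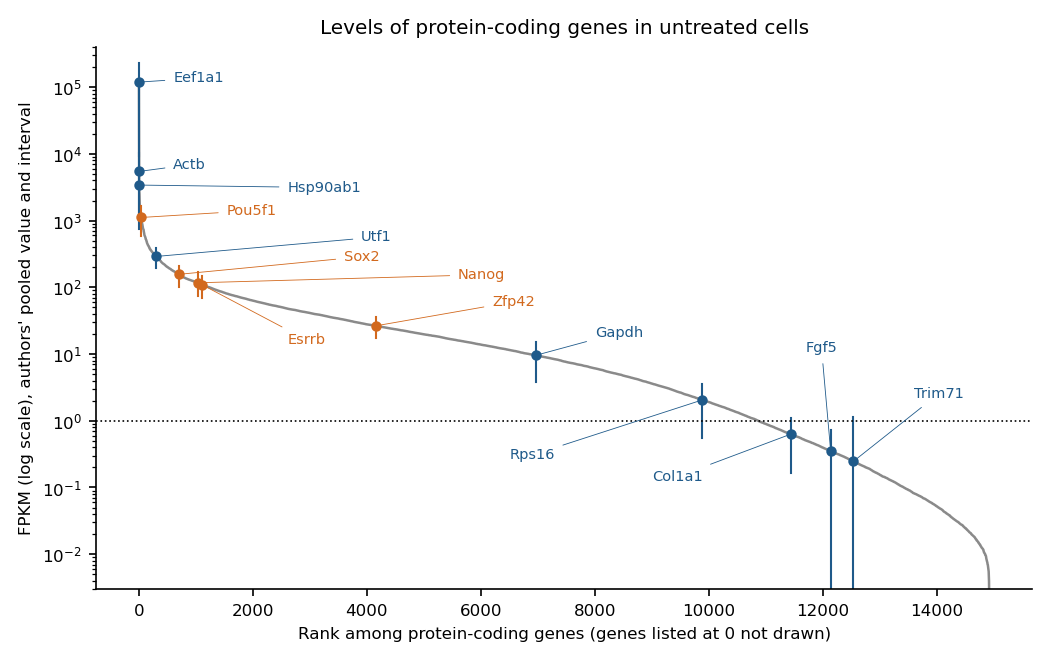
FPKM (log axis) of protein-coding genes in the pooled untreated libraries against their rank, with 14 genes marked and vertical bars for the authors' interval; orange points are the 5 stem cell markers, and the dotted line is 1 FPKM. Pou5f1 at rank 38 sits well above Sox2, Nanog and Esrrb, while Gapdh at 9.55 FPKM lies far below them and Trim71 lies below the line.

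The highest transcripts included many of protein synthesis, folding and turnover, beside others. Among the 20 highest protein-coding genes with at least 500 counts were the elongation factors Eef1a1 (118993 FPKM, interval 9277 to 228709) and Eef1b2 (1926), the ribosomal proteins Rpl8 (1869) and Rplp1 (1541), and Rack1 (2897), which sits on the small ribosomal subunit. Translation was also represented by Eif4g2 (1627 FPKM), the leucyl-tRNA synthetase Lars (2590, interval 82.6 to 7225) and Serbp1 (1547), an mRNA-binding protein. The cytosolic chaperones Hsp90ab1 (3409 FPKM, 986 to 5831) and Hsp90aa1 (2733) and the chaperonin subunit Cct7 (1540) were among them, with the proteasome subunits Psma6 (2825) and Psmb5 (2189, 0 to 4390). Actin Actb (5455 FPKM) and the actin-severing Cfl1 (1525) came from the cytoskeleton. The iron store Ftl1 (41541 FPKM, 8784 to 74297), the metallothionein Mt2 (2667), the ATP synthase subunit Atp5b (1991) and the splicing factor Hnrnph1 (1658, 0 to 3676) were also among them.

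The order at the very top depended on how length entered the value. Eef1a1 took 16.5% of the summed FPKM of protein-coding genes but 0.275% of the estimated counts, and Ftl1 took 5.76% of the FPKM but 0.0897% of the counts. Both share their locus with a small RNA gene in the authors' assembly. To compare the measures, the estimated count was divided by the length of the gene's merged exons and scaled to the total count of the pool. FPKM was a median of 2.0 times this count per kilobase, with 5th and 95th percentiles of 0.949 and 6.86, over the 9045 genes with at least 500 counts. For Eef1a1 it was 108 times, for Ftl1 62.0 times, for Lars 25.7 times and for Psmb5 25.9 times. Among these 9045 genes the most extreme were Spata7 at 149 times and Hibch at 133.8 times, neither known as an abundant transcript. Under the minimum of 500 counts, Actg1 (2513 FPKM on 472.8 counts) stood at 878 times. At least 10 times was reached by 167 of the 9045 genes. Among them were 6.28% of the 223 genes on loci shared with a small RNA gene and 1.65% of the 8587 genes alone on their locus. By count per kilobase the highest gene was Hsp90ab1 (2216), then Eef1a1 (1101), Rpl4 (1076), Rplp1 (1043), Rpl8 (1030) and Eef2 (978). The lists of the 20 highest by FPKM and by count per kilobase share 9 genes. Hsp90aa1 and the proteasome subunits Psma6 and Psmb5 are not on the list by count per kilobase. The 100 highest genes held 38.5% of the summed FPKM, 16.6% of the summed count per kilobase and 13.2% of the estimated counts. Among genes described below, FPKM was also at least 10 times the count per kilobase for Mad2l1 (15.2 times), Ndufa10 (12.7), Polr2f (11.1), Cct7 (16.9), Dhcr7 (10.5), Dnmt3a (11.2), Eno1 (12.8) and Il6st (10.7). The same held for genes of few counts, namely Fgfr3 (12.6 times), Lef1 (11.1), Wnt5b (16.3), Smarca2 (10.6), Igf1 (14.7), Dcn, and Col3a1 (185 times, on 13.8 counts).

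Naive pluripotency genes formed one of the higher groups of regulators. Of the 28 on the list, 27 had a value and 26 of these reached 1 FPKM (96.3%, beside 54.1% of all protein-coding genes). The median of the 27 was 65.9 FPKM against 1.84 for all protein-coding genes. After Pou5f1, the highest were L1td1 (349 FPKM), an RNA-binding protein, Utf1 (290.2, interval 194 to 387), a chromatin-bound factor, and Mybl2 (264), a cell cycle transcription factor. Sall4 stood at 171 FPKM (19.3 to 323), Tfcp2l1 at 128 (0 to 799), Lin28a, which blocks let-7 maturation, at 117 and Klf5 at 106. The interval of Tfcp2l1 spans nearly the whole range of the list. Tdh, the threonine dehydrogenase on which mouse stem cells depend, stood at 100.2 FPKM, Klf4 at 76.2, Nr0b1 at 65.9, Dppa4 at 62.6, Gdf3 at 46.3, Dppa2 at 43.6, Zfp281 at 39.9 and Fbxo15 at 36.1. The lower end held Tbx3 (19.4 FPKM), Dppa3 (17.8), Klf2 (16.9), Tcl1 (15.8), Nr5a2 (15.6) and Prdm14 (6.97), several of them genes known to vary from cell to cell. A pooled value cannot separate a few cells at a high level from all cells at a low one. Trim71, a let-7 target and RNA-binding ligase, was the exception at 0.246 FPKM (0 to 1.13). Dppa5a had no value of its own; the locus it shares with Gsta2 stood at 628 FPKM.

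Genes of the formative and primed states were split. Of 16 with a value, 14 (87.5%) reached 1 FPKM, with a median of 7.61 FPKM. Of all protein-coding genes 54.1% did, the share against which the count of each list can be read. The de novo methyltransferases Dnmt3a (324.5 FPKM, 11.2 times its count per kilobase) and Dnmt3b (100.8), the ephrin receptor Epha2 (190.3), Tcf15 (167) and the tight junction protein Cldn6 (128) were high. The regulators that define the later epiblast were lower: Pou3f1 stood at 15.3 FPKM, Otx2 at 8.70, Foxd3 at 3.78, Sox3 at 0.866 and Fgf5 at 0.354 (the authors' interval reaching 0). The primitive streak gene T stood at 1.18 FPKM. Of the 2-cell-like genes, which mark a rare state resembling the cleavage embryo, 0 of 18 reached 1 FPKM. Tcstv3 was their highest at 0.525 FPKM, Zscan4d stood at 0.325, and Duxf3, Tdpoz3, Tdpoz4 and Gm4340 were listed at 0.

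On the surface, Cdh1 (188 FPKM), the epithelial cadherin, Epcam (179.9), Cd9 (175.5) and Alpl (122), the alkaline phosphatase of stem cells, were the highest of 12 stem cell surface genes, 11 of which reached 1 FPKM. Fut4 was lowest at 0.697 FPKM. The message of Kit stood at 10.9 FPKM and that of Pecam1, also an endothelial gene, at 16.4 FPKM.

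**Figure D2:**
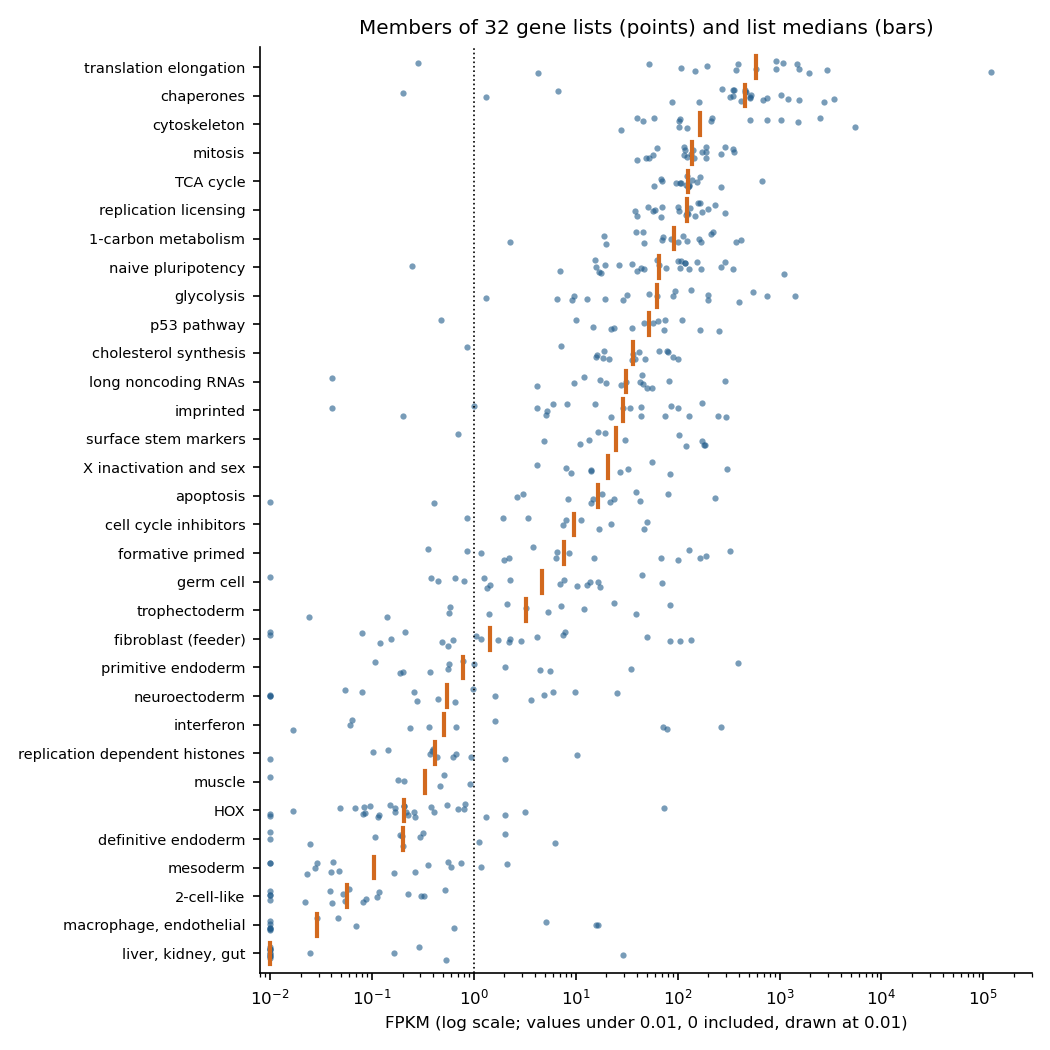
FPKM (log axis) of each member with a value in 32 gene lists, 1 point a gene and an orange bar for the list's median, ordered by the median; values under 0.01, 0 included, are drawn at 0.01 and the dotted line is 1 FPKM. Naive pluripotency genes (median 65.9) lie near the metabolic and cell cycle lists, while lineage lists such as mesoderm (median 0.106) lie mostly left of the line.

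Most transcription factor families had 1 or a few high members. The SOX family, with 8 of 19 members at 1 FPKM or more, was led by Sox2, then Sox15 (27.3 FPKM), Sox13 (24.6) and Sox12 (11.9). The POU family, with 8 of 15, was led by Pou5f1, then Pou2f1 (OCT1, 23.9 FPKM) and Pou3f1. The KLF family had 14 of 17 members present, and below Klf5 and Klf4 stood Klf3 (69.4 FPKM) and Klf9 (66.6). Nuclear receptors had 23 of 49 present, led by the oxysterol receptor Nr1h2 (135 FPKM), Esrrb and the retinoic acid receptor Rarg (106). The ETS family had 15 of 22, led by Etv4 (172 FPKM) and Gabpa (116), and the zinc finger genes named Zfp had 268 of 324, led by Zfp57 (338), which protects methylated imprints. All 8 E2F genes with a value were present, led by E2f4 (133 FPKM), as were all 4 TEAD and all 4 SALL genes.

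Several families of body patterning had a smaller share present than all protein-coding genes. Of the PAX genes 0 of 9 reached 1 FPKM, with Pax6, an eye and brain regulator, the highest at 0.987. Of the LIM homeobox genes 1 of 12 did, of the IRX genes 1 of 6, of the NKX genes 3 of 14 (led by Nkx6-3 at 10.7 FPKM), and of the T-box genes 5 of 17 (led by Mga at 64.2 and Tbx3). The FOX genes, with 17 of 38 (44.7%) and Foxh1 at 39.7 FPKM in the lead, were nearer the overall share. Of the 39 HOX genes, which lay out the body axis and are classical MLL1 targets, 30 had a value and 4 reached 1 FPKM, among them Hoxb9 (73.3 FPKM), Hoxb13 (2.03) and Hoxa5 (1.33). The interval of Hoxb9, whose locus carries other noncoding names, runs from 0 to 302 FPKM, so its level is not resolved from 0. Hoxc8 and Hoxc11 were listed at 0. These shares stand beside 54.1% for all protein-coding genes.

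The LIF pathway was present mainly below the ligand. Of 25 members with a value, 20 (80%) reached 1 FPKM, beside 54.1% of all protein-coding genes, the share against which each pathway below can be read. Among ligands, Ctf1 (8.34 FPKM) and Lif itself (3.49) were present, Clcf1 (0.583) and Osm (0.201) were under 1 FPKM, and Il6 was listed at 0; the medium supplied LIF. Of the receptor chains, the specific chain Lifr stood at 4.92 FPKM (interval 3.09 to 6.76) and the shared chain Il6st (gp130) at 103 (0 to 264, 10.7 times its count per kilobase). Cntfr stood at 32.5 FPKM, while the chains for oncostatin M (Osmr, 0.292) and interleukin 6 (Il6ra, 0.476) were under 1 FPKM. The kinase Jak1 stood at 21.6 FPKM, Tyk2 at 8.40 and Jak2 at 1.49, and the interval of Jak1 lies above that of Jak2 and overlaps that of Tyk2. Stat3 stood at 53.5 FPKM, the adaptor Gab1 at 136.0 and the phosphatase Ptpn11 at 28.8, and Stat5a and Stat5b at 2.12 and 5.20. All 7 target genes listed were above 20 FPKM: Tfcp2l1, Pim1 (114), the feedback inhibitor Socs3 (94.5, 0 to 189), Klf4, Gbx2 (61.2), Pim3 (58.2) and Pim2 (25.3).

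The BMP pathway had members of every role present. Of 30 members with a value, 21 (70%) reached 1 FPKM, among them 4 of 7 ligands and 3 of 6 antagonists. The ligands were Gdf3 (46.3 FPKM), Bmp4 (10.8), Bmp8b (2.67) and Bmp7 (2.34), with Bmp6 (0.479), Gdf6 (0.0392) and Bmp2 (0.0273) under 1 FPKM. The type I receptor Bmpr1a stood at 27.4 FPKM, against 0.432 for Bmpr1b. Bmpr2 stood at 2.62 FPKM, Acvr2a at 4.59, Acvr1 at 2.51 and Acvrl1 at 2.28. Of the receptor-regulated SMADs, Smad5 was at 27.1 FPKM, Smad1 at 11.7 and Smad9 at 0.0519, with the common Smad4 at 71.9. Secreted antagonists were low: Fst was at 3.84 FPKM, Chrd at 1.14, Nog at 0.140, and Grem1 was listed at 0, while the decoy receptor Bambi was at 2.63. The target genes Id1 (45.6 FPKM), Id2 (40.8) and Id3 (14.6) were present and Id4 (0.831) was not; Dusp9, a phosphatase that restrains ERK, stood at 168. The inhibitory Smad7 and Smad6 were at 21.8 and 1.79 FPKM.

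The Nodal branch was expressed from ligand to target. Nodal stood at 50.7 FPKM, the activin subunit gene Inhbb at 14.1 and Inhba at 0.0345, and Tgfb1, Tgfb2 and Tgfb3 at 2.95, 0.711 and 0.119. The co-receptor Tdgf1 (CRIPTO) was the highest gene of the pathway at 411 FPKM (interval 269 to 554). The receptors Acvr1b (14.3 FPKM), Acvr2b (8.06) and Tgfbr1 (7.36) were present, Tgfbr2 was at 0.852 and Acvr1c was listed at 0. Smad2 (44.8 FPKM) and Smad3 (13.5) have overlapping intervals, and their partner Foxh1 stood at 39.7. The feedback antagonists Lefty1 (72.5 FPKM) and Lefty2 (22.5) and the repressor Skil (39.4) were all present. In all, 17 of 22 members with a value (77.3%) reached 1 FPKM.

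In the FGF pathway Fgf4 led the ligands and Fgfr1 the receptors among those with a value, and several feedback genes were high. Fgf4 stood at 105.0 FPKM (interval 69.5 to 141), Fgf17 at 7.21, Fgf15 at 2.198, and Fgf1, Fgf5 and Fgf8 at 0.453, 0.354 and 0.232. Fgfr1 stood at 67.5 FPKM, Fgfr3 at 7.31, the decoy Fgfrl1 at 2.52 and Fgfr4 at 1.05, and Fgfr2 has no value of its own, its locus shared with Ctbp2 and Gm15718 being at 252 FPKM. Fgf2 likewise shares a locus, at 4.77 FPKM, with Bbs12 and Gm43439. All 12 transducers were above 10 FPKM, among them the ERK gene Mapk3 (116), the RAS genes Nras (147.5) and Hras (76.3), and at the low end Frs2 (11.7), Braf (11.3) and Sos1 (10.5). Between them lay Map2k1 (75.5 FPKM), Map2k2 (67.2) and Grb2 (23.9). Among targets, Etv4 (172 FPKM), Dusp6 (85.5), Spry2 (76.7) and Etv5 (66.3) were highest, followed by Spred2 (35.3), Spry4 (33.1), Spred1 (26.1), Ier3 (9.37) and Spry1 (6.32). The immediate early genes Egr1 (3.77 FPKM) and Fos (1.54) and the phosphatase Dusp4 (2.63) were lowest. In all, 31 of 34 members with a value (91.2%) reached 1 FPKM.

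**Figure D3:**
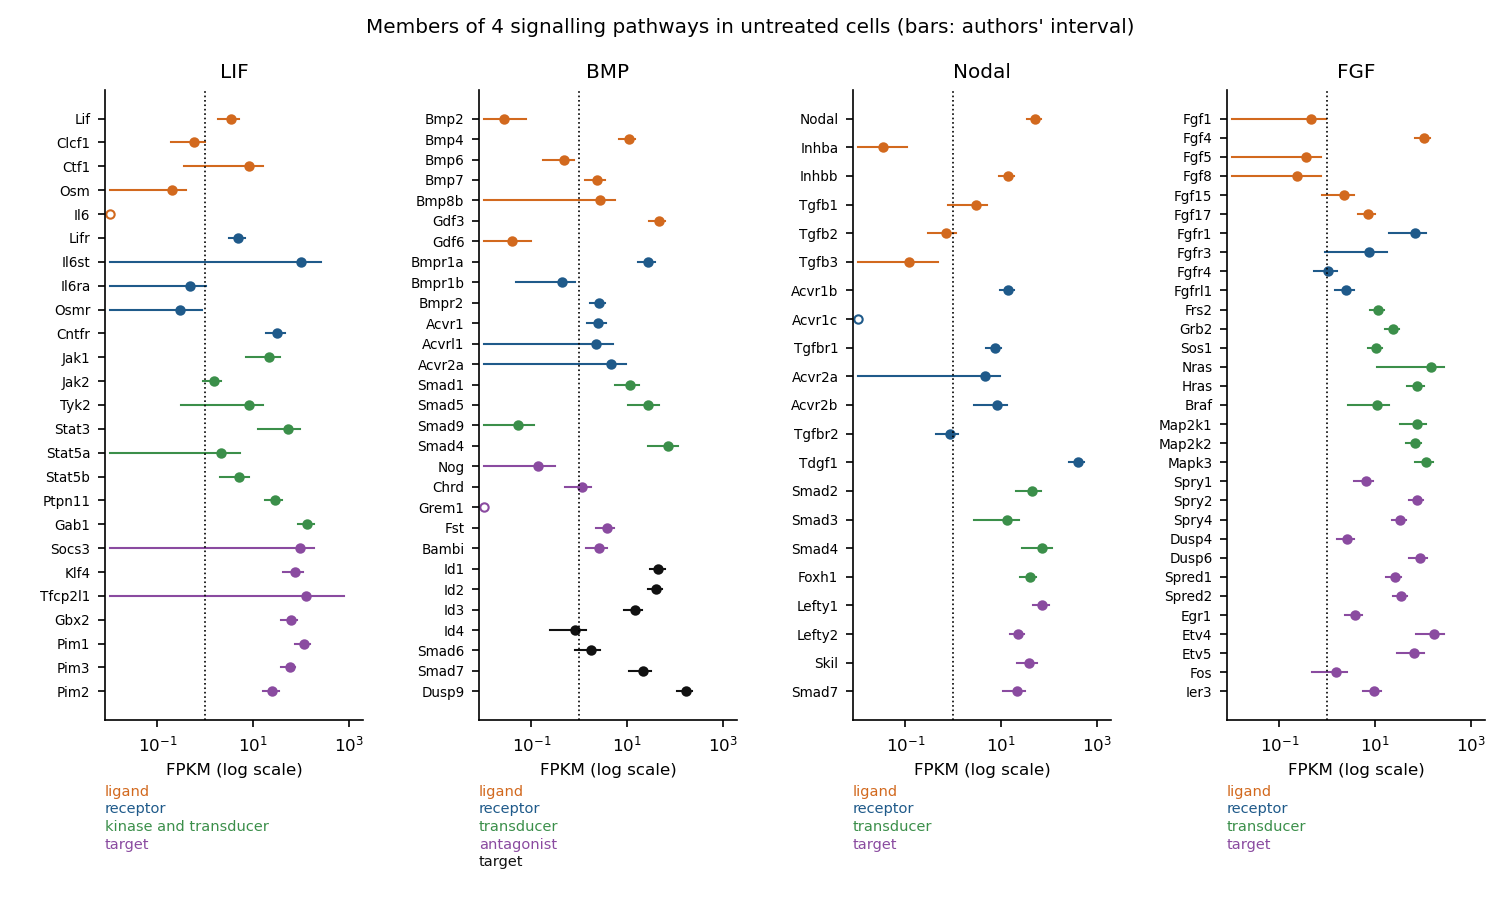
FPKM (log axis) of members with a value in the LIF, BMP, Nodal and FGF pathways, coloured by role, with bars for the authors' interval; open points are listed at 0 and the dotted line is 1 FPKM. Fgf4 (105.0) and Tdgf1 (411) stand out from the other ligands and receptors of their pathways, and Il6, Grem1 and Acvr1c are open points.

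Wnt genes were present in the cytoplasm and at the membrane with little ligand. Of 53 members with a value, 37 (69.8%) reached 1 FPKM. No Wnt ligand with a value was above 10 FPKM: Wnt5b stood at 6.15 (0 to 37.1), Wnt7b at 4.31, Wnt6 at 2.46, Wnt8a at 2.00, and Wnt10a, Wnt9a and Wnt4 between 1.45 and 1.55. Wnt11, Wnt5a, Wnt3 and Wnt3a were between 0.242 and 0.75 FPKM. Of the receptors, Ryk stood at 52.6 FPKM, Fzd7 at 25.0, Lrp5 at 20.8, Ror2 at 14.0, Lrp6 at 12.1 and Fzd5 at 11.2; Fzd2, Fzd6, Fzd3, Fzd10 and Fzd4 lay between 1.148 and 4.798, and Fzd9, Fzd1 and Fzd8 under 1. β-catenin, Ctnnb1, was the highest member at 901 FPKM, above Csnk1a1 (228). The nuclear repressor Tcf7l1 (59.9 FPKM) led Tcf7 (27.4), Lef1 (6.53) and Tcf7l2 (4.24). The destruction complex genes Axin1, Gsk3a, Gsk3b and Apc were at 53.1, 50.8, 19.9 and 19.8 FPKM and Dvl2, Dvl1 and Dvl3 at 32.03, 12.66 and 12.01. The antagonists Sfrp1 (28.3 FPKM), Notum (9.13) and Sfrp2 (3.26) were present, Dkk3 (0.658), Sfrp5 (0.377) and Dkk1 (0.0793) were under 1, and Dkk4 and Frzb were listed at 0. Targets were low, with Cdx1 at 5.43 FPKM, Axin2 at 3.35, Nkd1 at 0.939, Lgr5 at 0.166 and Sp5 at 0.107.

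Of the remaining pathways, Notch had 16 of 20 members (80%) present. Jag2 (15.8 FPKM) led the ligands Dll3 (4.90), Dll1 (3.76), Jag1 (2.27) and Dll4 (0.104), and the receptors Notch3 (13.5), Notch1 (13.4), Notch2 (6.00) and Notch4 (4.45) were all present. The nuclear effector Rbpj stood at 31.6 FPKM and the secretase subunit Psen2 at 9.08. Hes1 was the main target present at 33.7 FPKM, with Nrarp at 2.90, Hey1 at 0.682, Hey2 at 0.398 and Hes5 listed at 0. Hedgehog signalling had its receptors Ptch1 (17.8 FPKM) and Smo (10.2) and its mediators Sufu (19.08), Gli2 (14.0), Gli1 (11.1), Gli3 (4.15) and Kif7 (3.90), but none of 3 ligands reached 1 FPKM: Dhh stood at 0.927, Ihh at 0.0720 and Shh at 0.0243.

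Insulin and growth factor signalling had 14 of 18 members (77.8%) present. Igf2 stood at 43.7 FPKM against 0.275 for Igf1 and 0 for Ins2. The clearance receptor Igf2r (15.5 FPKM) had an interval (10.1 to 20.9) that overlaps that of Insr (5.58, 0.780 to 10.9) and lies above that of Igf1r (3.14, 1.51 to 4.77). Akt1 (31.9 FPKM), Rptor (19.8), Mtor (17.3), Pik3ca (13.2), Akt2 (13.03), Rictor (7.07), Irs2 (5.52) and Pik3r1 (5.12) were present, while Irs1 (0.152) and Irs4 (0.166) were under 1 FPKM. Vitamin D, the agent used elsewhere in the series, acts through VDR and an RXR partner. In these untreated cells Vdr stood at 0.556 FPKM (0.0367 to 1.07), Rxrb at 27.5, Rxra at 6.82 and Rxrg at 0.199. Pdia3, also described as a membrane vitamin D binding protein, stood at 419 FPKM. Of the vitamin D enzymes, Cyp27a1 stood at 3.11 FPKM, Cyp2r1 at 0.620 and the degrading enzyme Cyp24a1, a textbook VDR target, at 0.0662.

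Where related genes can do the same work, 1 member usually carried most of the transcript. In 65 sets of paralogues with at least 2 values, the leading member held a median of 81.7% of the set's FPKM, at least 90% in 19 sets and under 50% in 9. In 39 sets the authors' interval of the leader lay wholly above that of the second member. All 39 keep the same leader by count per kilobase, and 59 of the 65 sets do. The size of the lead could differ between the measures. The leader's share was smaller by count per kilobase for H2afy (92.7% by FPKM, 61.1% by count per kilobase), Tead2 (83.5% and 49.7%) and Yap1 (82.2% and 61.3%). In other sets it was larger, as for Esrrb (75.6% and 94.1%). The 6 sets that change leader are Dnmt3a (to Dnmt3b), Ccnd3 (to Ccnd1), Pfkl (to Pfkm), Pdk1 (to Pdk3), Smarcd2 (to Smarcd1) and Pcgf2 (to Pcgf6), and none of these is among the 39.

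In the cell cycle sets, Cdk4 stood at 1137 FPKM against 77.0 for Cdk2, Ccne1 at 228.5 against 35.5 for Ccne2, Ccna2 at 175 against 1.09 for the germ line cyclin Ccna1, and Ccnb2 at 118 against 49.2 for Ccnb1. The ribonucleotide reductase subunit Rrm2 stood at 231 FPKM against 6.16 for Rrm2b, and the topoisomerase Top2a at 347 against 17.1 for Top2b. Each of these leaders stood apart. Cyclin D was not settled, with Ccnd3 at 256, Ccnd1 at 71.1 and Ccnd2 at 7.17 FPKM. All 3 MYC genes were present, Mycn at 72.2 FPKM, Myc at 43.6 and Mycl at 9.66, and the intervals of Mycn and Myc overlap.

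Among chromatin regulators, 1 form usually led. Smarca4 (68.7 FPKM) stood apart from Smarca2 (3.52), Actl6a (129.6) from the neuronal Actl6b (0.0373), Arid1a (59.6) from Arid1b (7.78), Ezh2 (158) from Ezh1 (13.5), Cbx7 (115) from Cbx2 (11.8) and Chd4 (127) from Chd3 (9.53). Mbd3 (209.8 FPKM) stood apart from Mbd2 (46.5). Among histone variant genes, H3f3b (270.1 FPKM) stood apart from H3f3a (60.4) and H2afy (178) from H2afy2 (14.0). By count per kilobase H2afy was closer to H2afy2, at 23.9 against 15.2. H2afv (201.5 FPKM, 5377 counts) also stood above H2afz (30.2, 2222 counts), but a processed copy identical to H2afz held 13459 counts more, so this order is not settled. Hmga1 (135 FPKM) led Hmga2 (12.2), and Hmgn1 (125.4) led Hmgn2 (26.8).

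In the MLL and SET1, TET and DNA methyltransferase sets no leader stood apart. Among MLL and SET1 enzymes, Kmt2b stood at 40.5 FPKM (10.6 to 70.4), Kmt2a, the floxed gene, at 14.9 (5.77 to 24.1), Kmt2c at 9.41, Setd1b at 8.60 and Kmt2d at 8.07. The intervals of Kmt2b and Kmt2a overlap, and Setd1a has only a shared locus, at 31.5 FPKM. Whether the floxed exons of Kmt2a were transcribed cannot be read from a value for the whole gene. Tet1 (58.3 FPKM), Tet2 (27.5) and Tet3 (2.16) oxidise methylcytosine, and the intervals of the first 2 overlap. Besides Dnmt3a and Dnmt3b, given above, the DNA methyltransferase gene Dnmt3l stood at 145 FPKM and Dnmt1 at 117. Class I deacetylases were shared between Hdac2 (126), Hdac1 (89.6), Hdac3 (56.5) and Hdac8 (10.5 FPKM), and BET readers were led by Brd2 (153) and Brd3 (94.2).

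Among receptors and effectors, Lin28a (117 FPKM) stood apart from Lin28b (13.7), Esrrb from Esrra (35.0), Rarg from Rara (26.3), Rxrb from Rxra, Tead2 (216) from Tead1 (24.6), Yap1 (70.4) from Wwtr1 (15.3), Fgfr1 from Fgfr3, Cdh1 from Cdh3 (8.14) and Lmnb1 (226) from Lmnb2 (33.2). By count per kilobase Tead2 stood at 29.4 against 18.4 for Tead1, and Yap1 at 25.7 against 16.2 for Wwtr1. A-type lamin, Lmna, stood at 29.9 FPKM. The splicing regulators Ptbp1 (522 FPKM) and Rbfox2 (24.2) led Ptbp3 (46.3) and Rbfox3 (0.279), and Mbnl2 (38.2) led Mbnl3 (8.18). The glucose transporter Slc2a3 (836 FPKM, 127 to 1545) exceeded Slc2a1 (198) without standing apart. Sod1 (429 FPKM) stood apart from Sod2 (30.4) and Txnrd1 (342) from Txnrd2 (12.6).

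**Figure D4:**
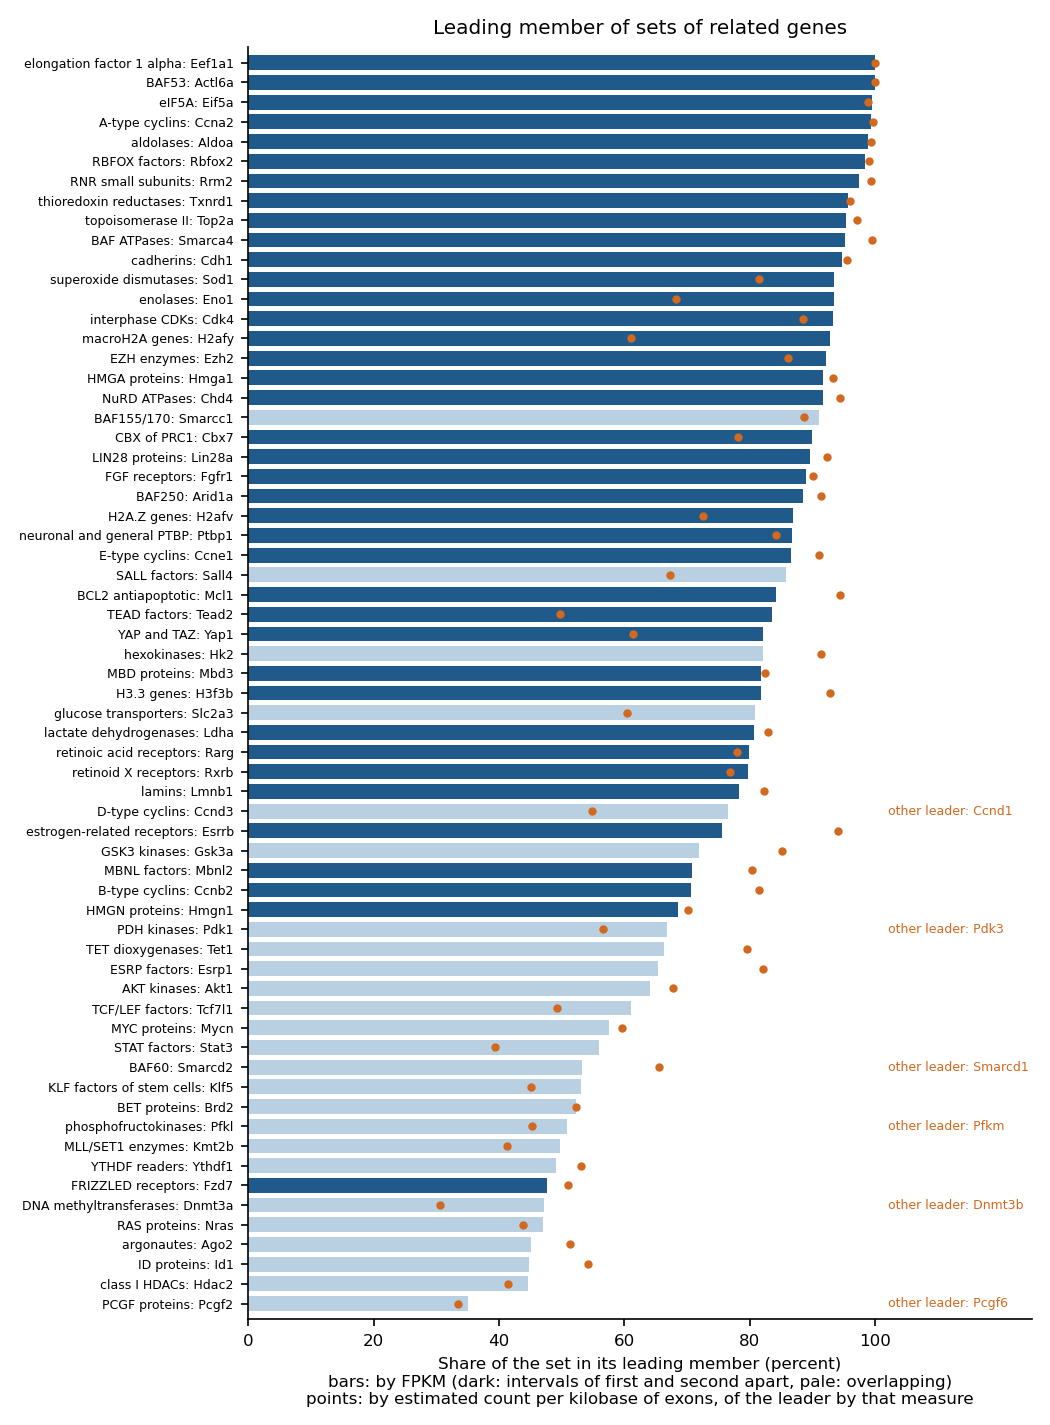
Share of the summed FPKM of paralogue sets held by its leading member (bars, percent, dark where the authors' intervals of the first 2 members do not overlap) and the share of the leader by estimated count per kilobase (orange points), with the set's name and leader by FPKM at left. Bars range from Pcgf2 (35.0%) to Eef1a1 (100%), and the 6 sets with another leader by count are named at right.

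All cell cycle genes with a value on the 2 lists of replication and mitosis were above 30 FPKM. All 20 replication genes with a value were present, from Pole (38.1) to Mcm2 (295), and all 20 mitotic genes with a median of 138 FPKM, from Cenpe (40.0) to Cdk1 (356). Mad2l1 (290.5 FPKM) and Ube2c (268) were among the highest mitotic genes. Of 10 cell cycle inhibitors, 9 reached 1 FPKM with a median of 9.68 FPKM. Rb1 stood at 50.5 FPKM, Cdkn1a (p21) at 46.9, Cdkn1c at 22.2, Cdkn1b at 17.0, Cdkn2a at 7.46, Cdkn2b at 1.92 and Cdkn2c at 0.856.

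The p53 gene Trp53 stood at 253 FPKM and its inhibitor Mdm2 at 167, with 13 of 14 genes of the p53 list present and a median of 52.3 FPKM. Ccng1 stood at 110.0 FPKM, and the death receptor Fas was the lowest at 0.478. Among BCL2 family genes, Mcl1 (231 FPKM) stood apart from Bcl2l1 (42.8), and Bcl2 was at 0.411. The pore former Bak1 stood at 79.8 FPKM and the BH3-only genes Bid, Bbc3, Bcl2l11 and Pmaip1 at 38.9, 24.0, 22.0 and 14.7. Bcl2a1a was listed at 0, and Bax shares its locus, which stood at 808 FPKM, with Dhdh and Gm45808.

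Metabolic genes were present almost without exception, with a few enzymes far from the rest. All 19 glycolytic genes reached 1 FPKM with a median of 62.9 FPKM, led by Pkm (1408), Eno1 (758, 12.8 times its count per kilobase) and Aldoa (549.7). Gapdh (9.55 FPKM, 3.85 to 15.2), Pgk1 (12.9) and Pgam1 (9.20), each catalysing a step of the same chain, stood far lower than its neighbours. All 16 genes of the TCA cycle lay between Sucla2 (58.6 FPKM) and Mdh2 (668), with a median of 126. All 18 one-carbon genes were present with a median of 92.7 FPKM, led by Psat1 (422), Mthfd1 (373.5) and Mat2a (225), with Gldc at 85.3 and Gnmt lowest at 2.25. Of 17 cholesterol genes 16 were present, from Dhcr7 (101.9 FPKM), Msmo1 (89.8) and Hmgcs1 (80.8) down to Idi1 (0.862), whose enzyme the pathway needs.

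Several of these low values belonged to genes with near-identical processed pseudogenes, copies of a spliced mRNA put back into the genome, to which reads of the gene align as well. Of 7630 annotated processed pseudogenes aligned to the longest transcripts of protein-coding genes, 2383 matched one at 95% identity or more over at least 60% of their length, with 982 genes as parents. These copies took 2.36% of all estimated counts and 74.8% of the counts on pseudogenes. Among 791 parents with at least 500 counts together with their copies, the copies held a median of 7.62% of the counts, and in 91 they held more than the gene. How the reads of such pairs were divided is not given in the sources used here.

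Some textbook housekeeping genes held fewer counts than their copies. Fau, a ribosomal fusion protein gene, held 181 counts (5.24 FPKM) against 9871 on its copy Gm9843, which is 100% identical. Tpt1 held 1366 counts against 12230 on Tpt1-ps3, H2afz 2222 against 13459 on Gm8203, and Rps16 85.5 against 3317 on Rps16-ps2, all 100% identical. Hspa8, a constitutive chaperone, held 11486 counts against 34710 on Gm15459 at 99.7% identity, and the helicase gene Eif4a1 held 23792 against 37230 on Eif4a-ps4. For Gapdh the 53 copies together held 1006 counts against 994 on the gene. For Ppia (6.77 FPKM) the copies held 169 counts against 1016, and for Pgk1 those with a value were listed at 0. For Idi1, 129 counts lay on the gene and 273 on Gm13502. Their part in the low values was not tested.

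**Figure D5:**
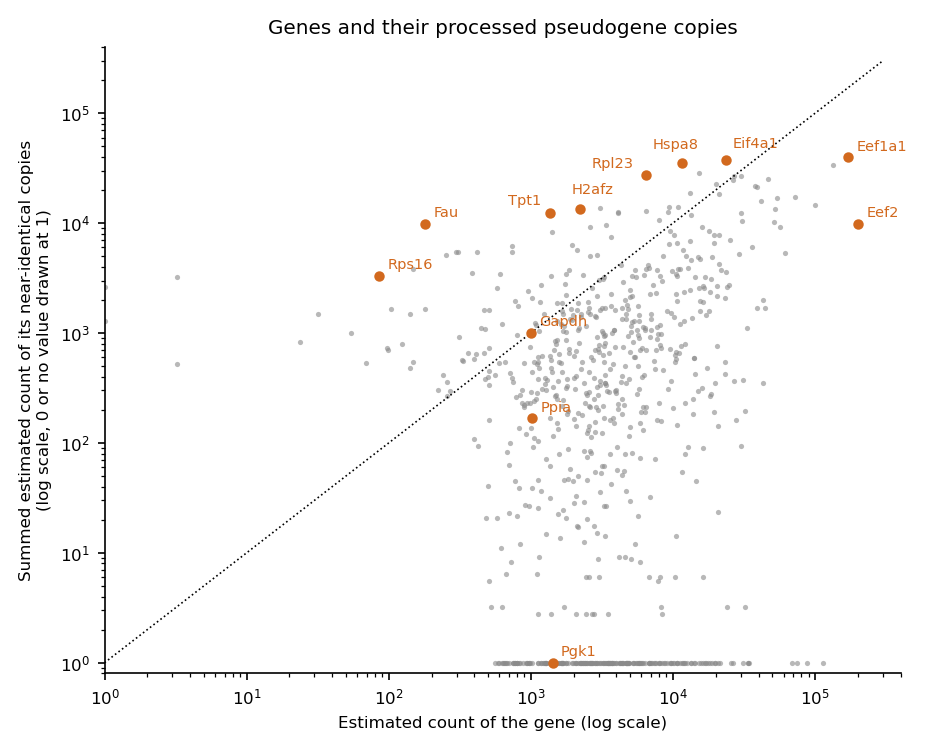
Estimated count of each parent gene (horizontal, log axis) against the summed estimated count of its near-identical processed pseudogenes (vertical, log axis, 0 or no value drawn at 1); the dotted line marks equal counts. Fau (181 against 9871) and Rps16 lie far above the line, Gapdh (994 against 1006) lies on it, and Eef2 lies far below it.

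Ribosomal protein genes have many such copies. Over the 76 ribosomal protein genes counted with their copies, the genes held 809195 counts and the copies 278386, or 25.6% of the sum, and in 22 the copies held more. The 45 large subunit genes with a value had a median of 76.0 FPKM and ran from Rpl3l (0.936), a muscle form, to Rpl8 (1869). The 30 small subunit genes had a median of 231.5 FPKM, and Rps16 (2.05) was the lowest. The listed levels spread widely, the 90th percentile being 103 times the 10th in the large and 179 times in the small subunit. The lists hold variant forms such as Rpl3l, Rpl10l and Rpl39l. By the number of copies the median was 10.1 FPKM for the 7 genes with none (middle 50% from 7.74 to 787), 518 for the 15 genes with 1 to 2, 149 for the 19 with 3 to 5, 68.9 for the 20 with 6 to 10, and 76.0 for the 15 with more.

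Other complexes ranged from even to uneven. The same ratio of percentiles was 5.78 for the 74 mitochondrial ribosomal proteins (median 66.8 FPKM, from Mrps36 at 1.14 to Mrpl18 at 311.5) and 8.28 for the 33 subunits of respiratory complex I (median 124, from Ndufb4 at 27.9 to Ndufa10 at 608). It was 2.51 for the chaperonin CCT (median 683 FPKM, Cct5 at 455 to Cct7 at 1540) and 2.2 for the MCM helicase (median 170.1, Mcm4 at 103 to Mcm2). In the chaperone list as a whole 23 of 24 genes were present with a median of 454 FPKM, and the stress-inducible Hspa1b (1.32) and Hspa1a (0.201) were the lowest. The proteasome had a ratio of 24.2 and a median of 200.1 FPKM, with the thymus subunit Psmb11 listed at 0.

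In PRC2, cohesin, NuRD, the BAF complex and the MLL core, all subunits with a value were present. The MLL core subunits Wdr5, Ash2l and Dpy30 stood at 109.6, 191.5 and 282 FPKM, each listed above every MLL and SET1 enzyme with a value. The interval of Wdr5 (66.5 to 152.7) overlaps that of Kmt2b (10.6 to 70.4), so that order is not resolved. PRC2 had a median of 181 FPKM, from the accessory subunit Phf19 (7.80) to Eed (355), cohesin 105 from Pds5b (17.3) to Smc1a (186.5), and NuRD 98.7 from Gatad2b (33.4) to Rbbp4 (284). The BAF complex had a median of 64.2 FPKM, from Smarce1 (14.2) to Dpf2 (159). RNA polymerase II had a ratio of percentiles of 32.9 and a median of 98.0 FPKM, from Polr2l (2.69) to Polr2f (331), and Mediator 32.5, from Med12l (0.793) to Med10 (104). The V-ATPase had 15 of 20 subunits present and 4 listed at 0, Atp6v0d2, Atp6v1b1, Atp6v1e2 and Atp6v1g3, which are forms of specialised cells.

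Markers of other cell types varied from list to list, and 54.1% of all protein-coding genes is the share to read them against. In a bulk sample a few cells with much of a transcript and many cells with little cannot be told apart. Of 22 fibroblast genes with a value, chosen because the cells grew on fibroblast feeders, 13 (59.1%) reached 1 FPKM, a share near that of all genes, with a median of 1.46 FPKM. Among collagen genes of the list, Col1a1 stood at 0.630 FPKM, Col1a2 at 0.211 and Col3a1 at 4.19. Postn (0.0796) and Dcn (0.122) were under 1 FPKM, and Lum and Prrx1 were listed at 0. At the high end, 6 members reached 5 FPKM, with Fn1 (136 FPKM), Tagln (105), S100a6 (83.8) and Vim (50.4) the highest. The part of feeder RNA in these values was not tested.

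Extraembryonic genes were uneven. Of 13 primitive endoderm genes 6 reached 1 FPKM, with a median of 0.780. Sparc (394 FPKM) and Col4a1 (35.1), which encode matrix proteins, were high, while the regulators Gata4 (2.01), Gata6 (1.01), Sox7 (0.780), Sox17 (0.204) and Foxa2 (0.108) were not. Of 13 trophectoderm genes 9 (69.2%) reached 1 FPKM, with a median of 3.23. The keratins Krt18 (84.4 FPKM) and Krt8 (38.7) and Tfap2c (23.8), which is also expressed in naive cells, were highest, and Cdx2 stood at 1.42, Eomes at 2.13 and Elf5 at 0.0240.

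Most mesoderm and definitive endoderm genes were under 1 FPKM, while some neuroectoderm genes were well above it. Of 16 mesoderm genes 2 reached 1 FPKM (median 0.106), Eomes and T, and Msgn1 and Gsc were listed at 0. Of 12 definitive endoderm genes 3 did (median 0.20), Hhex (6.25 FPKM), Gata4 and Cxcr4 (1.13), and Afp and Ttr were listed at 0. Of 16 neuroectoderm genes 6 did (median 0.546 FPKM), led by Olig2 (25.2), Nes (9.74) and Nefl (5.94), with Sox1 at 4.90 and Neurog2 and Dlx2 listed at 0. Among 14 liver, kidney and gut genes, 8 were listed at 0 and 1 reached 1 FPKM, the podocyte gene Nphs1 (29.3). Of the blood and endothelial genes 3 of 13 did, Pecam1, Cd68 (15.95 FPKM) and Tek (5.12), while Ptprc stood at 0.00887 and Adgre1, Tyrobp and both globin genes were listed at 0. Of the 12 genes on the striated muscle list only 6 had a value, and none of these reached 1 FPKM, Ryr2 being the highest at 0.910. Mylpf, a muscle light chain gene that is not on the list, stood at 1284 FPKM.

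Germ line genes included several that were present. Of 18, 13 reached 1 FPKM with a median of 4.64 FPKM. Stra8, which starts meiosis, was the highest at 70.1 FPKM, then Tex19.1 (44.9), which restrains retroelements, and the synaptonemal complex genes Sycp3 (17.4) and Sycp1 (16.7). Ddx4 (13.7 FPKM), Hormad1 (12.9), Mael (10.2), Piwil2 (7.66) and Dazl (6.98) followed. The male germ cell gene Nanos2 was listed at 0, and Brdt, of the testis, stood at 0.378 FPKM.

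Interferon genes divided sharply. Ifitm3 (266 FPKM), Bst2 (78.5) and Ifitm1 (71.2), which restrict viruses at membranes, were high and Ifit2 stood at 1.604, while the other 6 with a value, among them Isg15 (0.365), Ifit1 (0.0634) and Mx1 (0.0169), were under 1 FPKM. Of the 21 imprinted genes with a value 19 were present with a median of 29.0 FPKM. Grb10 (300.5 FPKM), Gnas (249), Slc38a4 (173), Peg10 (130.4) and Peg3 (101.5) were highest, and the noncoding Rian (0.203) and Kcnq1ot1 (0.0411) were lowest. H19 shares its locus with Mir675, and the locus stood at 202 FPKM.

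Y-linked genes were transcribed, as in male cells. Eif2s3y stood at 83.8 FPKM, Ddx3y at 32.7, Uty at 14.0, Kdm5d at 8.98 and Uba1y at 2.35, and these 5 were the only ones of 171 Y-linked genes with a value to reach 1 FPKM. The X-linked partners stood at 304 FPKM for Ddx3x, 55.9 for Kdm5c, 14.0 for Kdm6a and 8.13 for Eif2s3x. Xist, the RNA that coats an inactive X, shares its locus with 2 other names, and that locus stood at 5.81 FPKM. Of 888 X-linked genes 41.8% reached 1 FPKM, against 55.1% of 19040 autosomal genes, and the median of those present was 11.9 against 17.2 FPKM, a ratio of 0.694. Among autosomes the share ran from 44.3% on chromosome 14 to 64.4% on chromosome 12. Large gene families of single tissues were nearly silent: 0 of 1108 olfactory receptor genes named Olfr and 0 of 55 keratin-associated protein genes reached 1 FPKM, while of 327 vomeronasal receptor genes Vmn1r53 alone did (22.4).

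Among annotated long noncoding genes with a value of their own, few were present. Such a gene had a value only from loci that carry no other name, and a locus shared with 1 protein-coding gene counted for the latter. Loci of several names held 11.7% of the estimated counts. Of 28 long noncoding and host transcripts listed, 13 had no value, among them Neat1, Meg3 and Tug1. The shares and the ranking below leave such transcripts out. Of 8992 annotated long noncoding genes with a value, 490 (5.45%) reached 1 FPKM, and they held 0.603% of the estimated counts, against 89.9% on protein-coding genes. The 10 highest with at least 500 counts were 2410006H16Rik (293 FPKM), Snhg6 (153), Halr1 (132), which lies near the Hoxa cluster, Platr14 (122), Gm20463 (94.3), Gm42418 (94.2, interval 0 to 259), Epb41l4aos (82.2), Rab26os (81.4), Ifi30 (67.5) and 2410003L11Rik (67.5). The class is that of the annotation alone, and Ifi30 is counted here only because it is annotated as a processed transcript. Platr10 (56.1 FPKM) and Lncenc1 (45.1), named for their expression in stem cells, Malat1 (45.3) and Firre (42.4) were present too. Hosts of small nucleolar RNAs often share a locus with them; that of Gas5 and its neighbours stood at 2003 FPKM. Replication-dependent histone genes, whose mRNAs lack a poly(A) tail, had 2 of 12 members present, Hist1h2bc (10.2 FPKM) and Hist1h1c (2.04), with a median of 0.414.

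Promoter composition moved with level across genes. For 12848 protein-coding genes with 1 annotated start in the RefSeq table, the observed over expected CpG ratio in the 250 bases upstream had a median of 0.139 for genes at 0, 0.390 for those above 0 and under 1 FPKM, 0.677 from 1 to 10, 0.788 from 10 to 100 and 0.810 at 100 FPKM or more. Read the other way, 7.93% of 3165 genes with a ratio under 0.2 reached 1 FPKM, as did 88.2% of 3245 genes with a ratio of 0.8 or more. Nanog and Pou5f1 have 2 starts in the table and are not among these genes. Genes with a ratio under 0.2 at 100 FPKM or more numbered 10, among them the muscle light chain gene Mylpf (1284 FPKM), Bex1 (565), Pla2g1b (316) and Ifitm3.

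Motif matches in the same windows differed in the same way for some motifs and not for others. The GC box GGGCGG was found in 7.17% of genes at 0 and in 66.0% at 100 FPKM or more, against 43.6% of all 12848. The ETS motif CCGGAAG went from 1.46% to 20.7% (9.33% of all) and the E-box CACGTG from 2.81% to 10.2% (6.62% of all). The CRE TGACGTCA went from 0.759% to 3.42% (2.06% of all). The TATA box TATAAA was in 27.6% of genes at 0 and in 5.61% at 100 FPKM or more (12.9% of all). The CCAAT box differed little, with 36.0% at 0 and 38.3% at 100 FPKM or more, and the octamer ATGCAAAT, which OCT factors bind, was in 2.25% and 0.610% (1.63% of all). Both strands were searched. The GC box, ETS motif, E-box and CRE contain a CpG themselves, so their shares are tied to the CpG ratio, and matches that overlap were counted for each motif. Genes are not independent replicates, and these shares describe this pool without a test.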

How the data were processed

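RNA of mouse embryonic stem cells was isolated with the RNeasy kit and made into TruSeq libraries (labels' protocols). The submitters' processing notes name TopHat2 2.1.1, SAMtools 1.5, Cufflinks 2.2.1 and the build mm10. Settings, strand use and the level of the intervals are not given in these sources. The authors deposited FPKM with a lower and an upper bound for each locus, and estimated counts that need not be whole, each as 1 pooled column per group. The 18 columns of the other groups were not used.

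Loci with a valid status were kept. A locus naming exactly 1 protein-coding gene of GENCODE vM21 (GRCm38, the sequence of mm10) was assigned to it, whatever noncoding names it also carried, and the loci of a gene were summed with their bounds, which applied to 868 genes. A locus naming several protein-coding genes gave none of them a value. With strand unknown, reads of overlapping or antisense genes may be mixed. Pseudogene copies were aligned with minimap2 2.31, and each was assigned to its best match. Promoters came from RefSeq (GRCm38.p6), where 15339 genes matched by symbol; windows printed exclude bases inside the GENCODE gene. The other steps used Python 3.11.15 with pandas 2.3.3 and numpy 2.4.6, and the summing was tested on simulated data.

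The members and lists were chosen with earlier results of these data known. Named genes were the 20 highest coding and 10 highest long noncoding genes with at least 500 counts, the extremes of each list, complex and factor family and those at 0, members of signalling pathways and paralogue sets, the 5 markers, and 3 genes on either side of the threshold. With more members than a text can hold, some are given by range only, some single genes are not reported here though counts and medians hold them, and others were named after their values were seen. Alternatives changed the threshold, the unit, the loci used and the count minimum.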

Additional observations from a re-analysis of the deposited data

Results flagged for a closer look

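Signal also lay on loci that carry no gene name and enter no comparison above. The assembly holds 11771 such loci, and 1163 of those with a valid status reached 1 FPKM. They took 0.361% of all estimated counts, and 87 of them had at least 500 counts each. The largest lies on chromosome 16 from 53983837 to 53986222 (mm10), with 9259 counts and 62.9 FPKM, and overlaps the annotated Gm5487. The next, on chromosome 17 from 16668763 to 16670390, with 6869 counts and 68.4 FPKM, overlaps Gm3320. A locus of 171 bases on chromosome 19, from 54258604 to 54258774, held 6831 counts and 5412 FPKM, and no GENCODE gene overlaps it. What produced these values was not tested.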

How the results depend on the processing

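The number of protein-coding genes present, 10867 at 1 FPKM, was 11719 at 0.5 FPKM, 8406 at 5 FPKM, 8529 where the authors' lower bound had to reach 1 FPKM, 10846 with the highest single locus of each gene, 10355 with loci of 1 name, 10606 with at least 100 counts, and 10690 without genes whose FPKM was extreme for their count. All lie within 1.5 times of it. The share of the 100 highest genes depended on the unit and on a few genes. It was 38.47% of the FPKM, 38.48% with the highest single locus, 38.54% with at least 100 counts, 20.3% with loci of 1 name, 20.4% without genes of extreme FPKM for their count, 16.6% by count per kilobase and 13.2% by estimated counts; the settings without extreme genes and by count per kilobase were chosen after seeing the data. Over the 32 lists, the 358 memberships at 1 FPKM or more became 389 at 0.5 FPKM, 312 at 5 FPKM and 310 by the lower bound. The count moved by over 1.5 times in 6 lists at 0.5 FPKM, in 7 at 5 FPKM and in 3 by the lower bound, all of them lists of lineages, 2-cell-like, HOX, feeder or histone genes. Leading paralogues were the same in 59 of 65 sets by count per kilobase and in 65 with the highest single locus. No paired analysis was possible because both untreated libraries are 1 pooled column, which also means that no library could be left out. For the 3 genes on either side of 1 FPKM the authors' interval spans the threshold.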

Other observations

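A few loci have no valid status and enter no value above. The authors' tables mark 7 as failed, among them the RNA helicase genes Dhx9 (59931 counts) and Ddx17 (33343), the protocadherin-like Fat1 (30730), Cacybp (21305) and Kdelr3 (13984). For these 5 the listed FPKM lies above the listed upper bound. Both loci of the mitochondrially encoded genes are marked as too deep and listed at 0, so mitochondrial transcripts have no level here.

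The further families given here had a smaller share present than the 54.1% of all protein-coding genes. Of 95 cytochrome P450 genes 11 reached 1 FPKM, led by Cyp51 (38.5 FPKM), which acts in cholesterol synthesis. Of 31 Rhox homeobox genes 4 did, led by Rhox5 (22.1 FPKM), of 21 Mage genes 4 did, led by Maged1 (42.2), and of 20 clustered protocadherin genes none did, Pcdhb2 being the highest at 0.303.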
